A study of Mus musculus with 8 samples.

Results

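The genes described are the zinc finger genes with symbols from Zfp700 to Zfp999. They were chosen by name alone, as every gene of the count matrices whose symbol is Zfp followed by 3 digits, the first of them 7, 8 or 9, and at most 1 further letter. The rule gave 135 of 32285 genes. Their RNA was measured in single nuclei of the striatum, the forebrain region of movement and reward, from 32 mice at 12 weeks of age. The mice came from 8 inbred strains, 4 mice per strain: A/J, C57BL/6, 129S1/SvImJ, NOD/ShiLtJ, NZO/HlLtJ, CAST/EiJ, PWK/PhJ and WSB/EiJ. All were unedited and untreated as far as the labels say, and no strain served as a control. Each of 4 batches pooled nuclei of 1 mouse per strain before loading, so a mouse was identified by its batch and strain. The labels balance male and female mice within a batch, and the sex of a given mouse was not used. NZO/HlLtJ is written NZO/H1LtJ in the labels, and C57BL/6 is C57BL/6J in the design text but C57BL_6NJ in the table of nuclei.

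Zinc finger genes of this naming series are largely KRAB zinc finger genes. Their proteins bind DNA through arrays of zinc fingers, and the KRAB domain recruits the corepressor Trim28, which brings the histone methyltransferase Setdb1 and heterochromatin proteins to the bound site. The family is best known for silencing transposable elements, arises by duplication in chromosomal clusters, and differs in gene content between mouse strains. Some members stand apart from it: Zfp804a, the mouse counterpart of the schizophrenia-associated human gene ZNF804A, and its paralog Zfp804b carry no KRAB domain.

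The start regions of the 4 members on which the results below turn most are printed here, because they differ in CG content, a feature of promoters on which the choice of genes did not depend. Of the 135 members, 115 had a window in the RefSeq table of promoters (GRCm38.p6), reaching from 250 bases before the start listed there to 50 bases after it. The sequences run 5′ to 3′ on the strand of the gene, with CG dinucleotides in capitals. Zfp804b lies on the minus strand (window chr5:7344329-7344628, gene chr5:6769030-7344378), and the other 3 windows are chr2:82053408-82053707 on the plus strand for Zfp804a (gene chr2:82050129-82259879, so that this window lies inside the gene and not at its first base), chr9:88547770-88548069 on the plus strand for Zfp949 and chr13:67683463-67683762 on the minus strand for Zfp738.
Zfp804b: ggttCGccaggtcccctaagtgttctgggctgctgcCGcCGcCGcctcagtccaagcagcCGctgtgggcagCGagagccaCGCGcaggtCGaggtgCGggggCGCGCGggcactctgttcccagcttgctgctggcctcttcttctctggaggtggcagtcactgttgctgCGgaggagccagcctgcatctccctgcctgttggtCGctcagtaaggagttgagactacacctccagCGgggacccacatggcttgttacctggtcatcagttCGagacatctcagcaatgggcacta
Zfp804a: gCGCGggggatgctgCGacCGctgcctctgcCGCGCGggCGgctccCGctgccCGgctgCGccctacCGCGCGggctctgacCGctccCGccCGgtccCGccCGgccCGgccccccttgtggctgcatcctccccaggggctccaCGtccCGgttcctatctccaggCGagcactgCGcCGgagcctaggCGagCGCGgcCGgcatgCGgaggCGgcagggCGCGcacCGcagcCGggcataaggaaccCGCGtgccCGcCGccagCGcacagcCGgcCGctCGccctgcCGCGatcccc
Zfp949: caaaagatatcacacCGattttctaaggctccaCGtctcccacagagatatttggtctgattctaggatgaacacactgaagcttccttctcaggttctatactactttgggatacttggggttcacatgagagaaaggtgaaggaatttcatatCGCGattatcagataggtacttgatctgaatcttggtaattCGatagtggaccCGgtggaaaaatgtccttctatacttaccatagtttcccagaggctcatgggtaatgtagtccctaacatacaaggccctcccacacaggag
Zfp738: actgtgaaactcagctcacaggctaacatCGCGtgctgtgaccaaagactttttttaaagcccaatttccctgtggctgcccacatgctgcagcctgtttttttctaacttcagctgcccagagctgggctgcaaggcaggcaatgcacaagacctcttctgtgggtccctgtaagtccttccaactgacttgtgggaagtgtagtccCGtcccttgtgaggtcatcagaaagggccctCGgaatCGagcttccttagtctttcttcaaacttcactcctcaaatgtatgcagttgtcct
Zfp804a held 45 CG dinucleotides, a number reached by 1.88% of the 27025 RefSeq windows of this length. Zfp804b held 17 (31.5% of windows had as many), Zfp949 held 6 (55.8%) and Zfp738 held 5 (61.2%). Over the 115 members the median was 10 CG dinucleotides with a range of 2 to 54, against a median of 7 over all windows. An accessible region called by the authors overlapped the window of 91 of the 115 members (79.1%), against 12420 of 20267 genes of the matrices with a window (61.3%). All 4 printed windows had such a region.

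Batches 1 to 4 held 15367, 15626, 11826 and 12853 nuclei that the authors' annotation placed in 18 clusters. Of these nuclei 15395 were Drd1+ neurons, 13203 Drd2+ neurons, 12066 oligodendrocytes, 4748 astrocytes and 2638 macrophages. Median depth per batch was 3232 to 4931 unique molecular identifiers (UMIs) per nucleus, and any 2 batches shared 188 to 328 barcode sequences among their kept nuclei. Of the markers listed for the tested clusters, Drd1, Drd2, Mbp, Aqp4, Cx3cr1, Cldn5 and Nxph1 were each highest in the cluster they mark, and Cspg4 in the cluster Polydendrocyte/Oligodendrocyte. Others on the same lists were highest elsewhere: Tac1 in the second Drd1+ cluster, Isl1 in Chat+ interneurons, Pdgfra in fibroblasts, Gad1 in the cluster named Unknown, and Sst and Npy in Sst+ interneurons. Counts were summed per mouse and cluster into libraries, and 9 clusters had enough mice for a test. Libraries held 1710451 to 9416806 counts in Drd1+ neurons and 165465 to 1883033 in oligodendrocytes. Levels are given as CPM, counts scaled to a library total of 1000000.

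The members together took up 642412 of 258962399 counts, or 2481 CPM. Counts were found for 134 of the 135. Of the 135, 103 passed the filter on low counts in at least 1 cluster and 32 in none, the latter with at most 558 counts over all nuclei. In Drd1+ neurons, where all 103 were tested, their median level was 12.4 CPM, below the 19.1 CPM of all genes tested. The 5 members of highest level over all nuclei were Zfp804a (359 CPM), Zfp950 (157 CPM), Zfp704 (106 CPM), Zfp804b (104 CPM) and Zfp827 (79.0 CPM), the last a zinc finger protein that brings the NuRD complex to telomeres.

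Zfp804a was called higher in both large classes of projection neurons. Over all nuclei of a cluster it stood at 603 CPM in Drd2+ neurons and 320 CPM in Drd1+ neurons, but at 9.46 CPM in oligodendrocytes, 6.33 in astrocytes and 6.52 in macrophages. Against the mean of the other 4 of the 5 largest clusters, the edgeR contrast used throughout this paragraph and the next, it was higher by 5.35 ± 0.06 (log2, SE) in Drd2+ neurons and by 4.18 ± 0.06 in Drd1+ neurons. Zfp831 was placed alike, at 51.7 CPM in Drd2+ and 41.9 CPM in Drd1+ neurons against at most 4.01 CPM in the 3 glial and immune clusters. Zfp711, an X-linked gene whose human counterpart is mutated in X-linked intellectual disability, was higher by 2.73 ± 0.12 in Drd2+ neurons and lower by a log2 of -3.83 ± 0.49 in macrophages.

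Other members were called higher in non-neuronal clusters. Zfp710 stood at 691 CPM in macrophages and at most 84.5 CPM in the other 4 large clusters, a log2 difference of 3.69 ± 0.05. All 32 macrophage libraries lay between 557 and 1184 CPM for Zfp710, and strain was not called there (edgeR adjusted p = 0.306). Zfp804b was higher in oligodendrocytes than in the other 4 by 5.31 ± 0.30, though small clusters of neurons outside this contrast, such as Sst+ interneurons (1323 CPM), held more of it than the 677 CPM of oligodendrocytes. The Sst+ cluster held 165 nuclei in all, and only 2 mice had at least 10 of them. The level in oligodendrocytes came mainly from 3 of the 8 strains, as given below. Zfp704 reached 182 CPM in oligodendrocytes (log2 1.23 ± 0.05) and 706 CPM in the cluster the authors named Unknown, which also held the highest levels of the neuroblast markers Dcx and Sox11 and of Top2a. Zfp775 was highest among these 5 clusters in astrocytes, at 18.5 CPM (log2 1.22 ± 0.14). Zfp800 was higher in astrocytes by 0.72 ± 0.07 and in oligodendrocytes by 0.57 ± 0.06, and Zfp809, a KRAB protein that silences murine leukaemia viruses by binding their primer binding site, was higher in macrophages by 0.50 ± 0.11. Zfp706, a small protein linked to the exit of embryonic stem cells from self-renewal, was higher in oligodendrocytes by 0.38 ± 0.05.

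A gene was called in a comparison where its adjusted p from the edgeR quasi-likelihood test lay under 0.05, with Benjamini-Hochberg adjustment over all genes tested in that comparison. Of 67 members tested across the 5 largest clusters, 35 were called higher and 23 lower in Drd1+ neurons, where 45.7% and 40.4% of all tested genes were. In Drd2+ neurons 31 were higher and 20 lower, against 44.4% and 40.7% of all genes. Oligodendrocytes had 24 higher and 28 lower members beside 38.8% and 42.9% of all genes, and astrocytes 13 higher and 27 lower beside 35.6% and 40.9%. In macrophages 23 were higher and 24 lower, beside 30.5% and 44.2% of all genes. The median log2 difference of the members was 0.18 in Drd1+ and 0.12 in Drd2+ neurons, -0.05 in oligodendrocytes, -0.16 in astrocytes and -0.04 in macrophages. Over all genes it was 0.05, 0.03, -0.04, -0.06 and -0.18 in the same order.

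**Figure D1:**
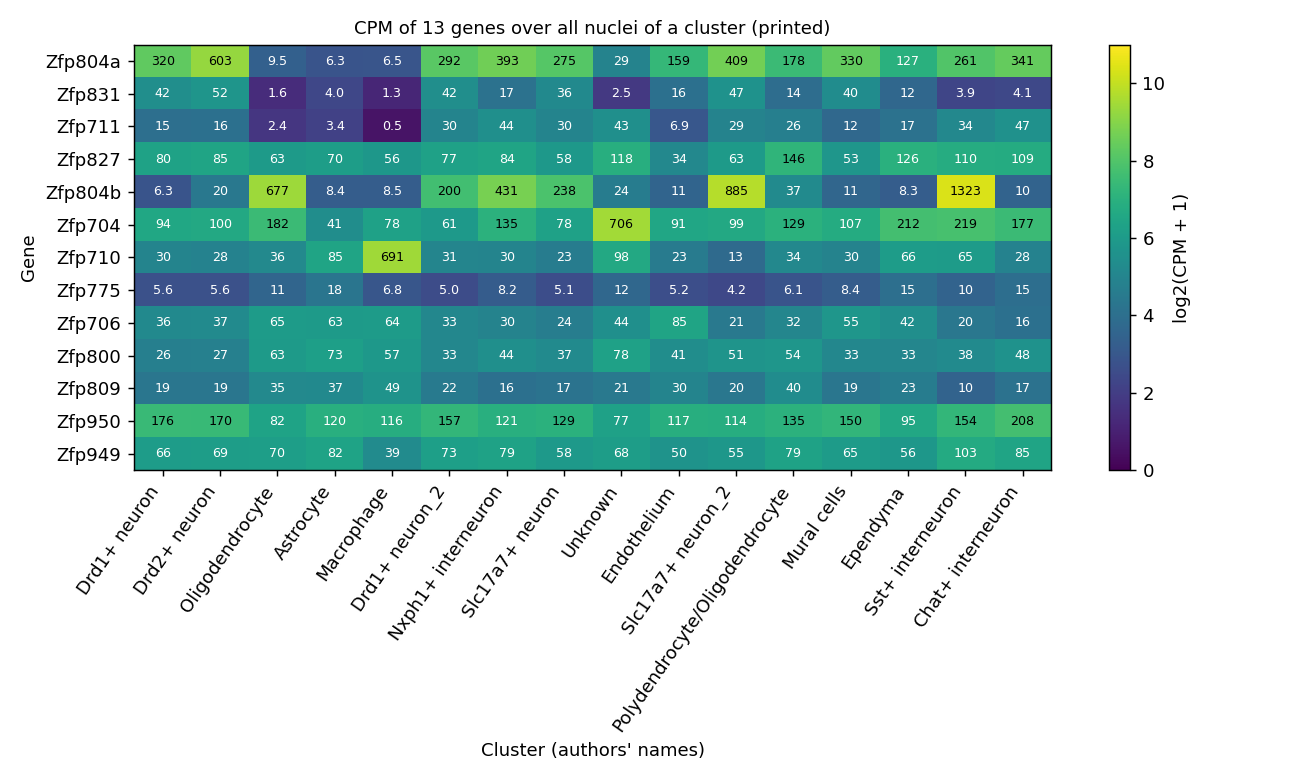
Level of 13 members over all nuclei of 16 clusters, rows genes and columns clusters, with the CPM printed in each cell and log2(CPM + 1) as colour. Zfp804a is high in neuronal clusters, Zfp710 in macrophages (691 CPM) and Zfp804b in oligodendrocytes (677 CPM), Sst+ interneurons (1323 CPM) and Slc17a7+ neuron_2 (885 CPM). The Sst+ cluster holds 165 nuclei, and only 2 mice have at least 10 of them.

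Most members tested in the 2 large neuronal clusters differed between strains. In Drd1+ neurons the strain term was called for 75 of 103 members (72.8%), where 61.7% of all tested genes were called. In Drd2+ neurons it was called for 62 of 97 members (63.9%) beside 55.9% of all genes, in oligodendrocytes for 27 of 58 (46.6%) beside 34.8%, and in astrocytes for 13 of 43 (30.2%) beside 21.5%. Without batch 1, 8 members were called in astrocytes, in a fit with fewer mice whose share of all genes is not given here. In the smaller clusters it was called for 4 of 14 members in macrophages (24.8% of all genes), for 6 of 28 in the second Drd1+ cluster (17.3%) and for 1 of 10 in Nxph1+ interneurons (1.53%). In the cluster Polydendrocyte/Oligodendrocyte 1 of 6 members was called (1.24% of all genes). In endothelium none of 9 members was called by edgeR or by DESeq2 with this filter, 2 had an unadjusted p under 0.05, and 3.23% of all genes were called. These small counts depended on the filter on low counts: with no filter or with a filter on mean CPM, 3 members were called in Polydendrocyte/Oligodendrocyte, 2 in endothelium, 4 in Nxph1+ interneurons, and 10 both in macrophages and in the second Drd1+ cluster. The filter on mean CPM also gave 20 in astrocytes. Both alternatives tested more members and more genes in these clusters, and their shares of all genes are not given here. These counts are therefore not set against the shares above. Of other genes with a Zfp symbol and a number, 111 of 207 (53.6%) were called in Drd1+ neurons and 12 of 103 (11.7%) in astrocytes.

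Fitted strain means of a member spanned a median log2 of 0.82 (Drd1+ neurons), 0.91 (Drd2+), 1.02 (oligodendrocytes) and 0.93 (astrocytes). The medians over all genes tested were 0.65, 0.64, 0.68 and 0.74. In each of these clusters the members had a lower median level than all genes, such as 30.9 against 49.5 CPM in astrocytes. Spans were not compared at equal level. Zfp949 was called in 8 of the 9 clusters, more than any other member. Only 4 members were tested in all 9, and Zfp934 and Zfp951 were called in all 6 clusters where they were tested. The small clusters had fewer counts per library, fewer genes tested and fewer calls than the 2 large neuronal clusters, and a missing call there does not show equal levels. P-values concern the spread between these 32 mice, of which 29 entered the fit in endothelium and 27 that in Polydendrocyte/Oligodendrocyte.

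**Figure D2:**
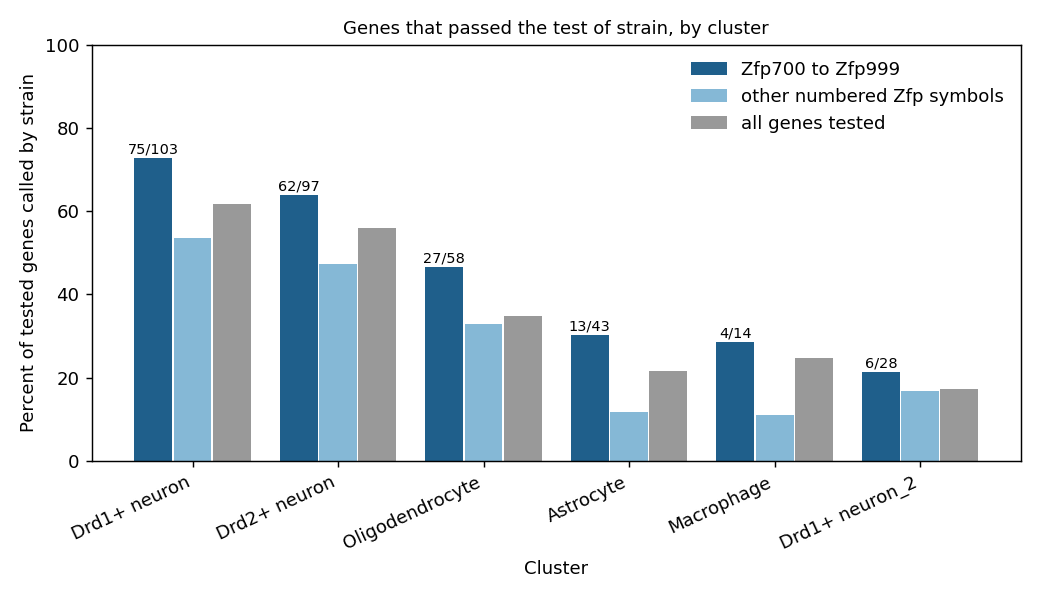
Percent of tested genes with a strain term called (edgeR adjusted p under 0.05), in 6 clusters, for the genes Zfp700 to Zfp999, other numbered Zfp genes and all genes, with called and tested numbers above the first bar of each cluster. The dark bars, 72.8% in Drd1+ neurons and 30.2% in astrocytes, stand above the others in the 6 clusters drawn. In macrophages (4 of 14 members) and the second Drd1+ cluster (6 of 28) they rest on few calls. Nxph1+ interneurons, endothelium (0 of 9) and Polydendrocyte/Oligodendrocyte, with few members tested, are not drawn.

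Zfp804b showed the widest strain difference of all members, and it did so in oligodendrocytes. The 4 mice of 129S1/SvImJ, in batch order, held 2468, 2474, 2628 and 3657 CPM. WSB/EiJ mice held 916, 1452, 1813 and 2115 CPM, and NZO/HlLtJ mice 1981, 1608, 950 and 686 CPM. PWK/PhJ mice held 73.2, 61.3, 140 and 81.1 CPM. These 4 strains were thus high or intermediate in every mouse. NOD/ShiLtJ mice held 13.6, 6.88, 38.7 and 52.1 CPM, and C57BL/6 mice 2.27, 1.65, 7.09 and 8.24 CPM. CAST/EiJ mice held 1.66, 3.99, 10.4 and 0 CPM, and A/J mice 3.61, 4.39, 0 and 0 CPM. The 12 mice of the 3 high strains did not overlap the other 20, whose highest value was 140 CPM, and the ratio of the 2 means was 74.4. The strain term was called with an adjusted p of 1.73e-14 in edgeR, and the fitted log2 difference of 129S1/SvImJ and CAST/EiJ was 9.91. Grouping the strains as high and low followed their values and carries no test of its own.

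The difference was seen in single oligodendrocyte nuclei. In 129S1/SvImJ, 860 of 1594 nuclei (54.0%) had at least 1 Zfp804b UMI, with a median of 6 UMIs in those nuclei and at most 85. In A/J it was 4 of 2102 nuclei. The median share per mouse was 52.3% in 129S1/SvImJ, 40.9% in NZO/HlLtJ, 37.7% in WSB/EiJ, 5.42% in PWK/PhJ and 2.51% in NOD/ShiLtJ, and below 1% in the other 3 strains. Thinning nuclei to 1000 UMIs, which left out 140, 114, 123, 115 and 153 shallower nuclei of these 5 strains in the same order, gave 48.8%, 36.1%, 35.9%, 3.49% and 1.31% for them. In Drd1+ neurons of 129S1/SvImJ, sequenced to a median of 6864 UMIs against 1697 in its oligodendrocytes, the share was 1.46%. Nuclei of 129S1/SvImJ with and without a Zfp804b UMI had median totals of 1772 and 1613 UMIs.

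**Figure D3:**
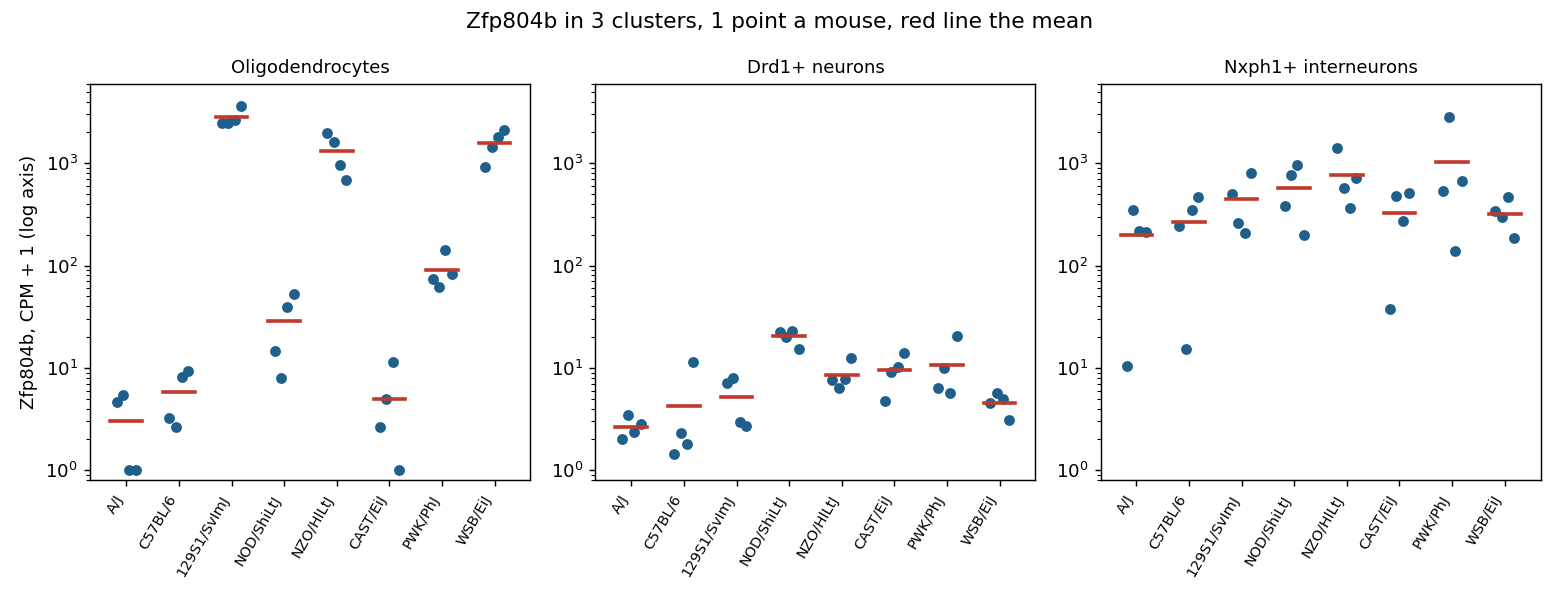
Zfp804b per mouse in oligodendrocytes, Drd1+ neurons and Nxph1+ interneurons, by strain, as CPM + 1 on a log axis, so that a mouse at 0 CPM sits at 1. Points are mice and red lines strain means of 4 mice. In oligodendrocytes 129S1/SvImJ, NZO/HlLtJ and WSB/EiJ stand apart from 686 CPM upwards, and in the other 2 clusters they do not.

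Oligodendrocyte markers were read beside Zfp804b. Mbp, which encodes myelin basic protein, ran from 6177 to 8215 CPM in the oligodendrocyte libraries of all 32 mice, from 7014 to 7889 CPM in those of 129S1/SvImJ and from 6421 to 8029 CPM in those of A/J. The ranges of all strains overlapped for Mbp and for Mog, another myelin gene (854 to 1680 CPM over all mice). Mobp, also a myelin gene, differed between strains in another order: it ran from 2308 to 2791 CPM in CAST/EiJ, from 1265 to 1418 CPM in NZO/HlLtJ, from 1136 to 1611 CPM in A/J and from 1400 to 1881 CPM in 129S1/SvImJ. In the neuronal clusters tested, mice of the 3 high strains overlapped the others. In Nxph1+ interneurons, which carry Zfp804b in every strain, levels pooled over mice ran from 209 CPM in A/J (95% Poisson interval 179 to 243, counting error only) to 738 CPM in PWK/PhJ (675 to 806). The strain term was not called there (edgeR adjusted p = 0.513), nor in the second Drd1+ cluster (0.723). Zfp804b was called by strain in 3 of the 5 clusters where it was tested: oligodendrocytes, Drd1+ neurons and Drd2+ neurons. In the second Slc17a7+ cluster, too small to test, the pooled levels were lowest in NZO/HlLtJ (651 CPM) and highest in C57BL/6 (1163 CPM), a strain near 0 in oligodendrocytes. In Drd1+ neurons levels were low, and the order differed: NOD/ShiLtJ held 21.4, 19.2, 22.2 and 14.4 CPM and A/J 1.00, 2.45, 1.36 and 1.83 CPM (edgeR adjusted p for strain 0.00026). The strain by cluster interaction of oligodendrocytes and Drd1+ neurons, a comparison added after the data had been seen, was called for Zfp804b with an adjusted p of 2.03e-11 in edgeR. Fitted oligodendrocyte minus Drd1+ log2 differences were 8.96 in 129S1/SvImJ, 8.38 in WSB/EiJ and 7.08 in NZO/HlLtJ, against 2.77 in PWK/PhJ, 0.14 in A/J and -1.87 in CAST/EiJ.

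A gene nested in Zfp804b and a second glial cluster were looked at beside it. Tex47 lies within the Zfp804b gene, and its 88 counts in oligodendrocytes came from the 3 high strains alone, with means of 16.5 CPM in 129S1/SvImJ, 9.36 in WSB/EiJ and 8.39 in NZO/HlLtJ and no count in the other 20 libraries. Whether those reads belong to Tex47 or to Zfp804b cannot be told apart here. In astrocytes of 129S1/SvImJ the 4 libraries held 4.74, 4.14, 250 and 67.3 CPM of Zfp804b (of raw totals), the third and the fourth from 35 and 24 counts. Between 1.05% and 2.99% of the nuclei of each of these libraries had a Zfp804b UMI, so few nuclei carried the counts. Mbp stood at 2780, 2569, 2311 and 2722 CPM in those 4 libraries, within the range of 1464 to 3536 CPM over all astrocyte libraries. The part of oligodendrocyte RNA in the astrocyte values was not tested.

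Zfp949 (chr9:88548020-88571086) was higher in NZO/HlLtJ and WSB/EiJ in cluster after cluster. In Drd1+ neurons NZO/HlLtJ mice held 112, 93.7, 155 and 123 CPM and WSB/EiJ mice 105, 117, 116 and 128 CPM. The other 24 mice ran from 35.0 to 66.5 CPM, so the groups did not overlap. Means were 121 ± 25.7 CPM in NZO/HlLtJ, 116 ± 9.15 in WSB/EiJ and at most 57.7 ± 7.67 in the remaining strains (SD, n = 4 each). Against the mean of the other 7 strains the log2 difference was 1.09 ± 0.07 (SE) for NZO/HlLtJ and 1.04 ± 0.07 for WSB/EiJ. PWK/PhJ was lowest, at 39.6 ± 3.52 CPM. The strain term was called with an adjusted p of 3.45e-20 in edgeR, the largest F statistic of all members in this cluster.

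The same 2 strains ranked highest in all 9 tested clusters, and their mice lay above all others without overlap in 6 of them. These were 8 mice against 24 wherever all 32 mice entered the fit. This pair was set after the values of Zfp949 had been seen and carries no test of its own. All clusters come from the same mice, so they are not independent. The ratio of the means of the 2 groups was 2.34 (Drd1+ neurons), 2.26 (Drd2+), 4.04 (oligodendrocytes), 4.95 (astrocytes) and 4.46 (macrophages). In oligodendrocytes the 8 mice ran from 147 to 215 CPM and the others from 18.2 to 72.2 CPM. In astrocytes the ranges were 152 to 266 CPM and 17.4 to 97.0 CPM. The difference between oligodendrocytes and Drd1+ neurons was tested by the interaction and was called (edgeR adjusted p = 5.38e-06): the oligodendrocyte minus Drd1+ log2 value was 0.39 in WSB/EiJ and 0.14 in NZO/HlLtJ and lay between -0.69 and -0.37 in the other 6 strains. For Drd1+ against Drd2+ neurons it was not called (adjusted p = 0.824). The strain term of Zfp949 missed the threshold in endothelium (adjusted p = 0.207). The calls in Nxph1+ interneurons (0.00266) and in Polydendrocyte/Oligodendrocyte (0.0435) rest on few nuclei: the first was lost without batch 4 (0.133), and in the second cluster no member was called whichever batch was left out.

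**Figure D4:**
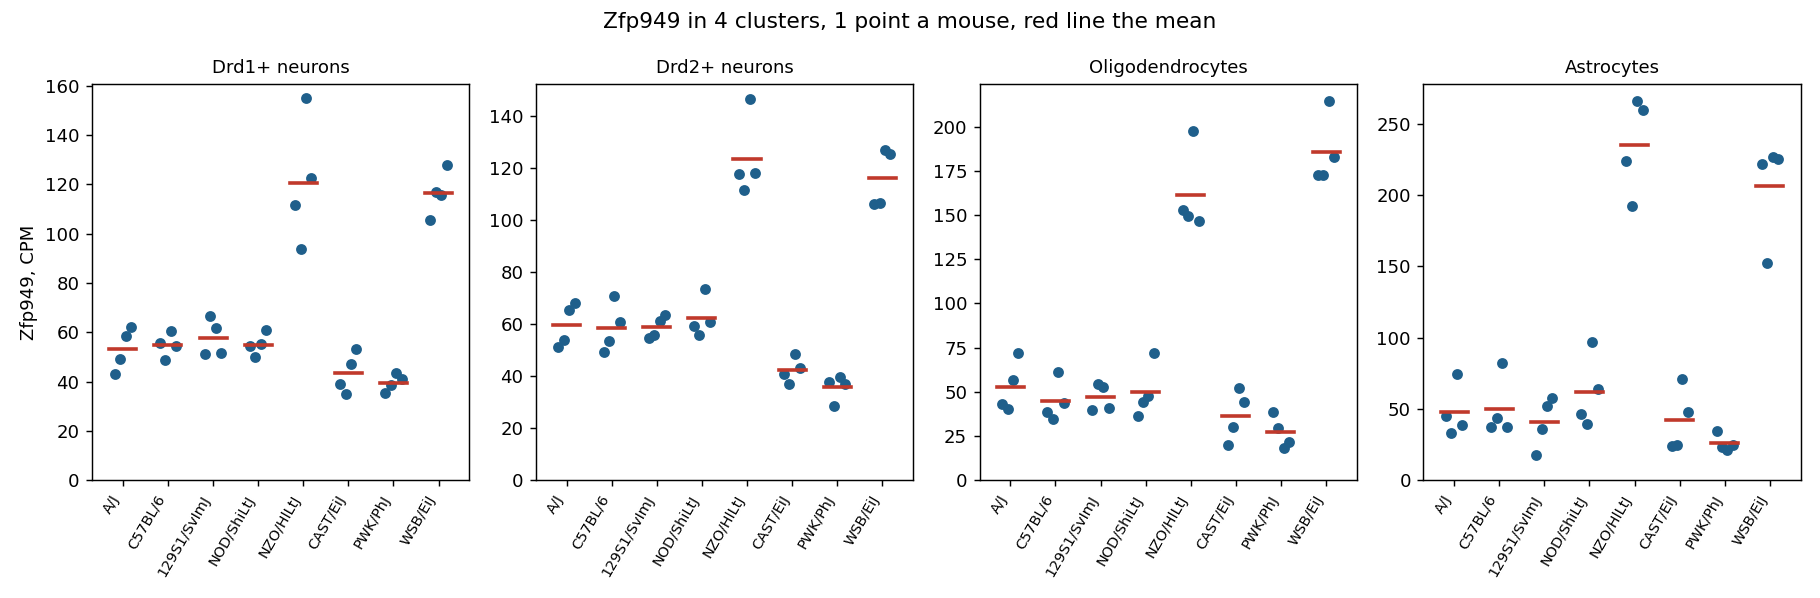
Zfp949 in CPM per mouse in Drd1+ neurons, Drd2+ neurons, oligodendrocytes and astrocytes, by strain, each panel on its own linear axis from 0. Points are mice and red lines strain means of 4 mice. NZO/HlLtJ and WSB/EiJ lie above all other mice in the 4 panels, at 93.7 CPM or more in Drd1+ neurons.

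Several members were high or low in a pair of strains in the way Zfp949 was. Zfp933, in the KRAB cluster of distal chromosome 4, held 30.6, 32.6, 36.8 and 34.8 CPM in Drd1+ neurons of A/J and 38.9, 33.6, 29.1 and 29.8 CPM in those of C57BL/6. The other 24 mice ran from 8.11 to 14.7 CPM (edgeR adjusted p = 1.81e-18). Zfp868 held 28.8, 35.2, 40.0 and 36.0 CPM in 129S1/SvImJ and 23.7, 29.8, 41.9 and 30.6 CPM in WSB/EiJ, above a range of 6.80 to 15.1 CPM in the rest (adjusted p = 1.29e-17). Zfp934 was the reverse case, a gene low in a pair: CAST/EiJ mice held 18.2, 19.7, 16.8 and 13.1 CPM and PWK/PhJ mice 15.7, 19.7, 15.6 and 18.4 CPM, below a range of 39.7 to 74.0 CPM in the other 24 (adjusted p = 2.97e-18). None of these 3 genes had overlapping groups in Drd1+ or Drd2+ neurons. All 3 were called in every cluster where they were tested, which was 5 clusters for Zfp933, 4 for Zfp868 and 6 for Zfp934. In oligodendrocytes and astrocytes their groups overlapped. For Zfp934 the other 6 strains ranked highest in 5 of its 6 clusters. The pairs were set after the values had been seen, and the genes were named for a large F in Drd1+ neurons. Both neuronal clusters come from the same mice, so the lack of overlap carries no test of its own.

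Other splits of the strains, also set after the values had been seen, were found in Drd1+ neurons. Zfp846 stood at 42.6 ± 11.9 CPM in A/J, 42.9 ± 10.9 in C57BL/6 and 44.9 ± 7.40 in NOD/ShiLtJ (SD, n = 4), and the means of the other 5 strains were at most 20.4 CPM. Its 12 high mice, from 32.7 CPM upwards, did not overlap the other 20, whose highest value was 23.2 CPM (edgeR adjusted p = 3.94e-14). Zfp943, on chromosome 17, was low in A/J, 129S1/SvImJ and NZO/HlLtJ, at 24.0 to 35.7 CPM, while the other 5 strains ran from 38.9 CPM, a CAST/EiJ mouse, to 93.9 CPM, a PWK/PhJ mouse (adjusted p = 1.12e-17). Zfp951 was low in 129S1/SvImJ, at 4.54, 3.61, 8.71 and 3.70 CPM, and in NOD/ShiLtJ, at 4.01, 8.09, 5.11 and 9.95 CPM, with all other mice between 11.5 and 42.2 CPM (adjusted p = 1.69e-15). In oligodendrocytes Zfp951 mice of these 2 strains stayed at or under 6.82 CPM, where they overlapped C57BL/6 (4.12 to 9.07 CPM), and WSB/EiJ reached 43.4 ± 13.2 CPM (SD, n = 4).

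Other members stood apart in a lone strain. The rule that named Zfp937, Zfp973, Zfp729a and Zfp759 required the mice of that strain to lie outside all others in Drd1+ neurons. That separation was therefore a condition of choice and carries no test. No member met the rule for 129S1/SvImJ, A/J, C57BL/6 or NZO/HlLtJ. Zfp738, on chromosome 13, was lowest in WSB/EiJ, whose mice held 2.11, 1.26, 2.24 and 2.78 CPM in Drd1+ neurons, and highest in C57BL/6, at 28.3, 21.9, 31.6 and 30.7 CPM. The remaining 24 mice ran from 5.54 to 23.7 CPM, which kept them apart from WSB/EiJ but let CAST/EiJ reach the lowest C57BL/6 mouse. The WSB/EiJ contrast was a log2 of -2.72 ± 0.22 (edgeR adjusted p = 3.21e-13). In oligodendrocytes WSB/EiJ mice held 0, 1.82, 4.25 and 1.66 CPM of Zfp738, and no other mouse was under 10.4 CPM. Zfp937, on chromosome 2, was low in the same strain: WSB/EiJ mice held 0, 0.314, 0 and 1.39 CPM, and all others 2.59 to 14.6 CPM (log2 -4.01 ± 0.42). Zfp973, also on chromosome 2, was lowest in WSB/EiJ, at 0.468, 0.942, 1.12 and 1.04 CPM, and highest in PWK/PhJ, at 15.4, 19.4, 13.5 and 26.4 CPM. The other 24 mice lay between, at 3.30 to 9.80 CPM, and the contrasts were -3.31 ± 0.33 for WSB/EiJ and 1.78 ± 0.16 for PWK/PhJ. Zfp729a was high in NOD/ShiLtJ alone, at 33.8, 32.0, 38.1 and 31.6 CPM against 2.16 to 15.4 CPM in all others (log2 1.91 ± 0.12), and it kept apart without overlap in all 4 clusters tested. Zfp759 was high in CAST/EiJ alone, at 9.24, 6.47, 10.8 and 8.99 CPM against 0.792 to 4.76 CPM (log2 1.66 ± 0.23). Zfp729a, Zfp738 and Zfp759 lie within the same run of 9 members on chromosome 13, in which 3 different strains were thus highest. Genes of such runs can be close copies of each other, and whether reads were shared between them was not tested, so the level of a given copy is uncertain.

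**Figure D5:**
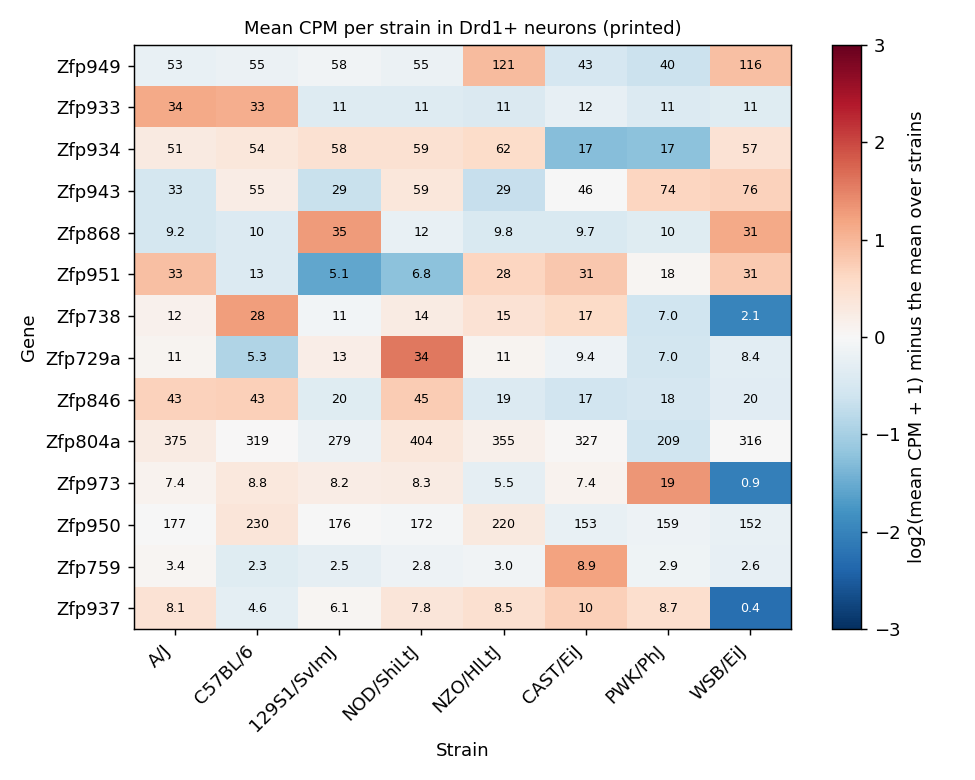
Mean CPM of 14 members in Drd1+ neurons (printed), rows genes and columns strains, n = 4 mice each, with colour for log2(mean CPM + 1) minus the mean over strains. Each row has its own set of high and low strains, such as A/J and C57BL/6 for Zfp933, CAST/EiJ and PWK/PhJ for Zfp934 and WSB/EiJ for Zfp738.

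Strain differences of Zfp804a, Zfp950, Zfp704 and Zfp827, 4 of the 5 members of highest level, spanned at most 0.96 (log2) in Drd1+ neurons, and Zfp804b, the other, spanned 3.38. Zfp804a held 415, 413, 389 and 400 CPM in Drd1+ neurons of NOD/ShiLtJ and 187, 223, 200 and 225 CPM in those of PWK/PhJ, and these 2 strains did not overlap (edgeR adjusted p for strain 1.71e-13). PWK/PhJ also fell below every mouse of the other 7 strains, whose lowest value was 261 CPM in 129S1/SvImJ. The contrast was -0.69 ± 0.06 for PWK/PhJ and 0.40 ± 0.05 for NOD/ShiLtJ. In Drd2+ neurons Zfp804a stood at 703 ± 46.4 CPM in NOD/ShiLtJ and 467 ± 46.2 CPM in PWK/PhJ. Zfp950 stood at 230 ± 22.8 CPM in C57BL/6 and 220 ± 26.1 CPM in NZO/HlLtJ, while means of the remaining 6 strains ran from 152 to 177 CPM (adjusted p = 3.23e-12). It overlaps Grk5, whose strain means, in CPM of raw totals, were lowest in WSB/EiJ (36.4 CPM) and highest in PWK/PhJ (60.1 CPM), and how reads are split between the 2 was not tested. Zfp831 was lowest in PWK/PhJ (26.7 ± 1.58 CPM) and highest in 129S1/SvImJ (52.9 ± 8.92 CPM, adjusted p = 1.00e-08). PWK/PhJ was also lowest for Zfp704 (82.4 ± 6.55 CPM, against 115 ± 9.77 CPM in A/J) and for Zfp827 (71.1 ± 5.21 CPM, against 96.6 ± 13.2 CPM in CAST/EiJ), with mice of neighbouring strains overlapping in both. The edgeR adjusted p for strain was 0.000251 for Zfp704 and 0.000499 for Zfp827, and the call of Zfp827 was lost without the replicate block (0.0613, the highest over its alternatives).

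The remaining members listed for a known role were read in Drd1+ neurons too. Zfp809 ran from 15.4 ± 1.23 CPM in C57BL/6 to 23.7 ± 4.86 CPM in PWK/PhJ in Drd1+ neurons, where strain was called with an adjusted p of 0.00328 in edgeR. That call was lost without batch 1 (0.0714, the highest over its alternatives, which began at 0.00271). Zfp992, in the chromosome 4 cluster whose KRAB proteins bind endogenous retroviruses, ran from 1.82 ± 0.818 CPM in C57BL/6 to 12.0 ± 2.06 CPM in WSB/EiJ (adjusted p = 9.35e-10). Zfp777 and Zfp800 were called with adjusted p-values of 0.0420 and 0.0189, both lost without batch 1 and without batch 4, Zfp777 also without the replicate block and in DESeq2 and Zfp800 also without batch 2; over all alternatives their adjusted p-values ran from 0.0254 to 0.211 and from 0.0155 to 0.204. Zfp711 (adjusted p = 0.408) and Zfp706 (0.657) were not called. Zfp703 and Zfp750, the latter a regulator of epidermal differentiation, did not pass the filter in any cluster.

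In Drd1+ neurons, contrasts of a single strain with the average of the remaining 7 showed which strains the calls came from, and all 8 contrasts draw on the same 32 mice. CAST/EiJ had 27 members higher and 16 lower of 103, beside 16.8% and 15.9% of all genes, and PWK/PhJ 15 higher and 27 lower, beside 17% and 17.3%. CAST/EiJ and PWK/PhJ had the most calls among members and among all genes. NZO/HlLtJ had 20 higher and 9 lower (11% and 8.74% of all genes), WSB/EiJ 15 and 10 (9.66% and 7.3%), and NOD/ShiLtJ 17 and 7 (9.4% and 6.48%). A/J had 15 higher and 7 lower (10.6% and 6.66%), C57BL/6 10 and 10 (8.01% and 5.93%), and 129S1/SvImJ 11 and 7 (7.72% and 4.58%). Without batch 1 the counts of both directions together were 11 in 129S1/SvImJ (as without batch 2), 14 in A/J, 13 in C57BL/6 and 18 in NZO/HlLtJ (19 without batch 2). These refits held fewer mice, and their shares of all genes are not given, so the lower counts are not read as particular to the members. The median log2 difference of members was highest in NZO/HlLtJ (0.09) and CAST/EiJ (0.07) and lowest in PWK/PhJ (-0.10) and C57BL/6 (-0.08). Medians of all genes ran from -0.003 in C57BL/6 to 0.010 in 129S1/SvImJ.

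The strain in which a called member was lowest was PWK/PhJ for 19 of 75 members (25.3%, against 20.6% of all called genes) and C57BL/6 for 13 (17.3% against 10.3%). CAST/EiJ was the highest strain for 17 of the 75 (22.7% against 20.3%). PWK/PhJ was highest for 7 members (9.33%), where it was highest for 18.6% of all called genes. These shares describe the 75 called members and were not tested.

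Position on the chromosome was not used to choose the genes. Of the 135 members, 132 were placed on GRCm38.p6, with 25 on chromosome 7, 23 on chromosome 17, 14 each on chromosomes 4 and 8, 13 on chromosome 2 and 12 on chromosome 13. Runs of at least 4 members, in which neighbours lay within 1 Mb, held 81 members. In Drd1+ neurons 44 of 60 tested members in runs (73.3%) and 31 of 43 outside them (72.1%) were called, beside 61.7% of all genes. The median span of strain means (log2) was 0.94 in runs and 0.68 outside them, a difference that was not tested.

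The run with most members, chr4:145510759-147849126, held 14 members, of which 5 passed the filter. These 5 were called, where 61.7% of all genes were, with a median span of 2.87. A gene low in most strains, such as Zfp990 below, passes the filter through the strains where it is high, so neither value supports a difference of this run from others. The other runs with most called members were chr17:21565816-22867309 with 10 of 13 tested members, chr17:32765496-33307239 with 6 of 8, chr7:41633531-43618279 with 6 of 7 and chr6:47815536-48621548 with 5 of 5. Runs with fewer calls included chr13:67038594-67683512 with 3 of 8 and chr8:69209018-69774911 with 3 of 6. Zfp990, the first member of the chromosome 4 run, was singled out after its values were seen. It was low throughout, with 7.13, 4.72, 3.41 and 4.46 CPM in Drd1+ neurons of NOD/ShiLtJ, 0, 0.112, 0 and 0.262 CPM in A/J and no count in any C57BL/6 mouse. For C57BL/6 the limit that a count of 0 allows, 3 counts of the strain's total, is 0.236 CPM. NOD/ShiLtJ and PWK/PhJ, the latter at 2.15 to 4.75 CPM, were the highest strains, and every mouse of the other 6 held at most 4.13 CPM. The highest strains of the 5 called members in this run were NOD/ShiLtJ for Zfp990 and Zfp984, A/J for Zfp991 and Zfp933 and WSB/EiJ for Zfp992.

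The partners through which KRAB proteins act were looked at in the same fit. Of 26 listed silencing genes tested in Drd1+ neurons, such as Trim28, Setdb1, the heterochromatin proteins and the subunits of the HUSH complex, 13 were called by strain, beside the 61.7% of all genes given above. Drd2+ neurons had 11 of 26 called (55.9% of all genes), oligodendrocytes 5 of 25 (34.8%) and astrocytes 2 of 22 (21.5%). Trim28 was highest in PWK/PhJ, at 12.8 to 19.0 CPM, and lowest in NZO/HlLtJ, at 8.44 to 9.50 CPM, 2 strains that did not overlap (edgeR adjusted p = 0.000533). Setdb1 ranged only from a mean of 76.4 CPM in NOD/ShiLtJ to 91.5 CPM in NZO/HlLtJ, and mice of all strains overlapped (adjusted p = 0.0444). In Drd1+ neurons the widest called spans of the list were 0.96 for the deacetylase Hdac1 and 0.89 for Trim28. Wider ones were called elsewhere, such as 1.54 for the heterochromatin protein gene Cbx3 in oligodendrocytes and 1.68 for Trim24, a relative of Trim28, in astrocytes.

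Whether strain acts alike in related cells was asked by the interaction of strain and cluster. Between Drd1+ and Drd2+ neurons it was called for 1 of 104 members, with 5 at an unadjusted p under 0.05, where 4.58% of all genes were called. That member was Zfp804a (edgeR adjusted p = 0.00276): its Drd2+ minus Drd1+ log2 difference ran from 0.81 in A/J to 1.18 in PWK/PhJ, so that PWK/PhJ and NOD/ShiLtJ lay closer together in Drd2+ neurons. Without the replicate block no member was called. Between Drd1+ neurons and oligodendrocytes, the pair added later, 20 of 102 members were called, beside 16.9% of all genes. The count was 6 without batch 1, 9 without batch 2 and 10 without batch 4, in fits with fewer mice whose shares of all genes are not given here. After Zfp804b and Zfp949 came Zfp827 (adjusted p = 5.41e-05), which in oligodendrocytes was lowest in CAST/EiJ, the strain where it was highest in Drd1+ neurons. CAST/EiJ oligodendrocytes held 41.5, 23.9, 62.4 and 23.0 CPM of Zfp827 and its Drd1+ neurons 94.0, 112, 80.5 and 99.7 CPM. Zfp951 (0.000533), Zfp846 (0.00558), Zfp934 (0.00589), Zfp800 (0.0209) and Zfp738 (0.0419) were called as well. For Zfp804b and Zfp949 the call held without each batch, and for Zfp827 and these 5 genes that was not tested.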

How the data were processed

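Nuclear RNA was counted by 10x Multiome in 4 pools of striatal nuclei, each with 1 mouse of each of 8 strains. The deposited matrices hold the authors' UMI counts per gene and nucleus, with no normalization. The submitters' processing notes name bcl2fastq 2.20.0.422, Cell Ranger ARC 2.0.0 and the builds mm10 and GRCm38. The cluster, batch and strain of each nucleus came from the table the authors deposited, whose labels are of other kinds than counts, and only barcodes with a cluster annotation in it were kept. That table marks all of these as passing its quality filter, as singlets in its doublet column and as kept in its removal column, and no doublet caller was run here. Whether strain differences in sequence changed counting against a single build was not tested.

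Counts were summed per mouse and cluster. Libraries of at least 10 nuclei were used in clusters with at least 3 mice of every strain. The edgeR 4.0.16 quasi-likelihood test (R 4.3.3) was run with filterByExpr, TMM scaling and a block, over all genes, with Benjamini-Hochberg adjustment and a threshold of 0.05. The block was batch in the strain fits. It was the mouse in the cluster contrasts and the interactions, where libraries of the same mouse were paired. Batch pairs the mice of all strains because the labels say each batch pooled 1 mouse per strain. The fits were a strain term per cluster, in Drd1+ neurons each strain against the average of the remaining 7, each of the 5 largest clusters against the mean of the other 4, and strain by cluster interactions. Levels of members, Trim28 and Setdb1 per mouse and strain mean are CPM scaled by TMM. CPM of raw totals were used for levels over all nuclei of a cluster, levels pooled by strain, Zfp804b in astrocytes of 129S1/SvImJ, and the per-mouse levels of Mbp, Mog, Mobp, Tex47 and Grk5, so the last are not on the scale of the members beside them. Poisson intervals are at 95% and cover counting error only, as does the limit of 3 counts for a count of 0. DESeq2 1.42.0, other filters, no block and leaving out each batch were alternatives. The scripts ran in Python 3.11.15 and were tested on simulated data.

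Genes were named by rule: the 12 called members with the largest F for strain in Drd1+ neurons and at least 5 CPM in the highest strain; per strain, the called member with the largest contrast whose mice all lay outside the others; the called member with the largest F in each other cluster; the 3 called with the largest interaction F; the 5 of highest level; per cluster, the called member with the largest positive contrast; members with a known role; and Trim28 and Setdb1. Zfp990, Zfp984 and Zfp991 were named after their values were seen. The members and lists were chosen with earlier results of these data known. Protein features had been planned and were not analysed here. Results that need 1 further marker gene are not reported here.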

Additional observations from a re-analysis of the deposited data

Results flagged for a closer look

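In 267 groups of 4 mice, 16 had a mouse far from the other 3, judged by its gap to the next mouse over the range of the 4. Chance gives about 1 in 20 if values follow a normal distribution, which was not tested. In oligodendrocytes the 129S1/SvImJ mouse of batch 4 held 3657 CPM of Zfp804b (others 2468 to 2628). In astrocytes Zfp949 stood at 82.2 CPM in C57BL/6 of batch 3 (others 37.1 to 43.4) and at 152 CPM in WSB/EiJ of batch 2 (221 to 226), and in the second Drd1+ cluster at 206 CPM in WSB/EiJ of batch 4 (113 to 118).

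The other 12 were in Drd1+ neurons. High mice were Zfp804b in C57BL/6 of batch 4 (10.4 CPM, others 0.442 to 1.30), Zfp937 in CAST/EiJ of batch 3 (14.6, others 8.17 to 9.06) and Zfp729a in CAST/EiJ of batch 1 (12.1, others 8.41 to 8.65). Zfp706 was high in 129S1/SvImJ of batch 4 (44.4 CPM, others 32.8 to 33.6) and in NZO/HlLtJ of batch 2 (47.5, others 34.7 to 36.8). Zfp800 was high in NZO/HlLtJ of batch 1 (26.0 CPM, others 19.0 to 19.4) and low in C57BL/6 of batch 3 (25.01, others 29.8 to 30.7) and in CAST/EiJ of batch 2 (17.8, others 25.3 to 26.5). Zfp777 was high in WSB/EiJ of batch 3 (24.6 CPM, others 18.7 to 19.4), where Zfp711 (10.6, others 14.1 to 14.6) and Zfp992 (8.94, others 12.8 to 13.2) were low. Zfp933 was low in WSB/EiJ of batch 4 (10.4 CPM, others 11.6 to 11.7).

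Strain differences that themselves differed between clusters, by the edgeR interaction test, were those of Zfp804a between Drd1+ and Drd2+ neurons (adjusted p = 0.00276). Between Drd1+ neurons and oligodendrocytes, the pair chosen after seeing the data, 20 members were called, and those named elsewhere in the text were Zfp804b (2.03e-11), Zfp949 (5.38e-06), Zfp827 (5.41e-05), Zfp951 (0.000533), Zfp846 (0.00558), Zfp934 (0.00589), Zfp800 (0.0209) and Zfp738 (0.0419).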

How the results depend on the processing

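Alternatives were run for 81 results (24 counts of members and 57 values of single genes). No single-gene value reversed, though interaction spans cannot be negative, and counts have no direction. Of the alternatives for single genes, 491 kept direction and call and 25 lost the call. Those that kept it include genes not called in either fit, and a missing adjusted p would count as kept. Of those for counts, 190 stayed within 1.5 times and 47 moved. Requiring a span of at least 1 (log2) left strain calls for 41 of 103 members in Drd1+ neurons and 37 of 97 in Drd2+ neurons. Of all genes tested, 3369 of 13431 and 2987 of 12799 were left in these 2 clusters. A filter on mean CPM gave 20 in astrocytes, and that filter and no filter each gave 3 in Polydendrocyte/Oligodendrocyte, 2 in endothelium, 4 in Nxph1+ interneurons, and 10 both in macrophages and in the second Drd1+ cluster. More members and genes were tested in these clusters under both, and the shares of all genes are not given. Strain contrasts of at least 1 left 2 members in 129S1/SvImJ, 3 in A/J, 8 in C57BL/6, 10 in CAST/EiJ, 7 in NOD/ShiLtJ, 3 in NZO/HlLtJ, 11 in PWK/PhJ and 7 in WSB/EiJ. The shares of all genes at that cut are not given, so these counts are not read as particular to the members. Cluster contrasts of at least 1 left 12 (Drd1+ neurons), 9 (Drd2+), 15 (oligodendrocytes), 7 (astrocytes) and 16 (macrophages) of the 67 members tested. Without that cut, no filter gave 82 in Drd2+ neurons and 79 in oligodendrocytes, and the mean filter 88 in Drd2+ neurons. Those 2 filters tested more members than the 67 of the main fit. For none of these cluster counts is the share of all genes given.

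Without the replicate block, 11 members were called for 129S1/SvImJ and 0 for the Drd1+ and Drd2+ interaction, where Zfp804a had an adjusted p of 1 (edgeR). Zfp827 (0.0613) and Zfp777 (0.0846) also lost the strain call without the block, and it changed no other call among the 57 gene values refitted. The other genes named for the interaction with oligodendrocytes (beyond Zfp804b and Zfp949), Zfp990, Trim28 and Setdb1 were not among those values.

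Leaving out each batch gave strain calls for 57 to 72 members (Drd1+ neurons), 51 to 58 (Drd2+), 22 to 25 (oligodendrocytes), 8 to 13 (astrocytes) and 3 to 5 (macrophages). The second Drd1+ cluster gave 4 to 7, Nxph1+ interneurons 0 to 1, and endothelium and Polydendrocyte/Oligodendrocyte 0. Contrasts ran from 11 to 15 in 129S1/SvImJ, 14 to 22 in A/J, 13 to 18 in C57BL/6, 31 to 40 in CAST/EiJ, 17 to 21 in NOD/ShiLtJ, 18 to 26 in NZO/HlLtJ, 30 to 37 in PWK/PhJ and 19 to 21 in WSB/EiJ. The interaction ran from 1 to 2, and that with oligodendrocytes from 6 to 18. Cluster contrasts ran from 50 to 58, 46 to 54, 48 to 51, 30 to 40 and 40 to 44 in the order above. Each of these fits held fewer mice than the main fit. Their shares of all genes are not given, so the counts are not set against the shares of the main fits. The causes of these moves were not tested. A minimum of 30 nuclei could not be run in Nxph1+ interneurons, endothelium and Polydendrocyte/Oligodendrocyte.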
